A study of Mus musculus with 8 samples.

Results

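The genes described here are 10 epidermal protease, inhibitor and cross-linking enzyme genes of barrier formation and desquamation: the serine protease genes Klk5, Klk7, St14 and Prss8, the inhibitor genes Spink5, Spint1 and Spint2, the caspase gene Casp14, and the transglutaminase genes Tgm1 and Tgm3. They were chosen by name for these roles, and all 10 were found among 26180 mouse genes with a curated RefSeq transcript. For each gene, the peaks of 4 lists (MOF, Rfx2, H3K4me3 and H3K27Ac) were sorted into those at its promoter, in its body, and within 20 kb of it. The promoter window covered 1 kb before and 100 bp after a transcription start site (TSS), and an overlap of at least 1 bp counted.

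The tissue of every library was total epidermis, separated with dispase from the back skin of newborn (postnatal day 0.5) wild-type mice and brought to a cell suspension. MOF, the histone H4 lysine 16 acetyltransferase encoded by Kat8, was mapped by ChIPseq on fixed and sheared chromatin. Rfx2, an X-box binding transcription factor, and the histone marks were mapped by Cut&Run, in which a nuclease tethered to the antibody cuts out the bound fragments. The series had 8 samples and 6 antibodies, and lists of 1 library for each of 4 antibodies were analysed here, with no mutant or treated group among them. The H3K4me3 and H3K27Ac lists are tied by the labels to repeat libraries, although the name of the H3K4me3 list carries no mark of a repeat. With 1 list for each antibody there was no replicate error and no test, so every count below describes these libraries, and a missing peak means only that none was called at the depth of that library. The study gives mapped reads for each library, fewest for Rfx2 among those used, but the lists themselves hold no read counts.

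The outermost layer of the epidermis is shed by proteolysis of the corneodesmosomes that hold its dead cells together. Kallikreins carry out much of this cleavage, LEKTI (the product of Spink5) holds them in check, and a membrane-bound cascade of matriptase and prostasin acts upstream in the living layers under the control of the Kunitz inhibitors HAI-1 and HAI-2. Caspase-14 takes part in the breakdown of filaggrin, and transglutaminases cross-link proteins and lipids into the cornified envelope. H3K4me3 is found at active promoters, and H3K27Ac at active promoters and enhancers.

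Total epidermis holds keratinocytes of all layers together with melanocytes and immune cells, and a peak list cannot tell which of them carried a peak. H3K4me3, called at the promoters of 54.0% of all genes, was looked up at genes that define cell types. It was present at 3 of 5 keratinocyte genes (Krt5, Krt14 and Trp63, with fold enrichments of 3.29 to 3.98). It was not called at Krt1 and Krt10, which mark the layers above the basal one. Of the genes that define other cells, H3K4me3 was present at 1 of 3 melanocyte genes (Mitf, 9.58), 1 of 3 fibroblast genes (Pdgfra, 6.75), 0 of 3 immune genes and 0 of 2 endothelial genes. With so few genes and so common a mark, these counts cannot check the tissue. The part of other cells in the peaks below was not tested. The MOF list held 17546 peaks, the Rfx2 list 337, the H3K4me3 list 27039 and the H3K27Ac list 30736. The MOF list is longer than the number of MOF peaks stated for the study, so each MOF count below and its share over all genes rest on a list that may be an unfiltered call. Each MOF region is an outer span around inner blocks, and the MOF widths, edges and distances given here are those of the outer span. Peak height is given below as the fold enrichment over local background that the peak caller wrote for the marks, and as a score of unstated scale for MOF, so heights are ranked within a list and not compared between lists.

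The promoters of 3 related gene pairs show the range of sequence in the set and are printed here because members of each pair differed in their peaks. Each runs from 250 bp before to 50 bp after the TSS on the strand of the gene, as given by RefSeq for GRCm38.p6 (mm10), and capitals mark CG dinucleotides, the sites of CpG methylation. Klk5 lies at chr7:43842019-43842318 (plus strand), Klk7 at chr7:43811044-43811343 (plus), Spint1 at chr2:119237110-119237409 (plus), Spint2 at chr7:29281928-29282227 (minus), Tgm1 at chr14:55713443-55713742 (minus, the upstream of its annotated start sites) and Tgm3 at chr2:130012090-130012389 (plus).
Klk5: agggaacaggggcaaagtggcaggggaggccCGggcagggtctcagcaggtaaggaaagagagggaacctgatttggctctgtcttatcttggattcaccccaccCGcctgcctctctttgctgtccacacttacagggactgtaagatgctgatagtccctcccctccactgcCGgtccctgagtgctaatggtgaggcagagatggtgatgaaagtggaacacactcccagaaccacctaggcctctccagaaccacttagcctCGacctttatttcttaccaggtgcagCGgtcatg
Klk7: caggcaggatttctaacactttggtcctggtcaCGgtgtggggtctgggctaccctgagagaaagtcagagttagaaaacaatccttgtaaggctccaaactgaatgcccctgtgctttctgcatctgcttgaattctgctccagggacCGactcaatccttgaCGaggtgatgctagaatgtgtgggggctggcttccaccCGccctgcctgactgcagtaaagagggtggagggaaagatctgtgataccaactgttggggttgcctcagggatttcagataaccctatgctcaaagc
Spint1: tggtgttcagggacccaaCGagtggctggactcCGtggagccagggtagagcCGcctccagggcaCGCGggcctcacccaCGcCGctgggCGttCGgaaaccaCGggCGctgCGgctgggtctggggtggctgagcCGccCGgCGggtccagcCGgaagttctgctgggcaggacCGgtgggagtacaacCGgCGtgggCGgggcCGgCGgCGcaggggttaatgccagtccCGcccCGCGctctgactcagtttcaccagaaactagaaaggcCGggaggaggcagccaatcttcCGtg
Spint2: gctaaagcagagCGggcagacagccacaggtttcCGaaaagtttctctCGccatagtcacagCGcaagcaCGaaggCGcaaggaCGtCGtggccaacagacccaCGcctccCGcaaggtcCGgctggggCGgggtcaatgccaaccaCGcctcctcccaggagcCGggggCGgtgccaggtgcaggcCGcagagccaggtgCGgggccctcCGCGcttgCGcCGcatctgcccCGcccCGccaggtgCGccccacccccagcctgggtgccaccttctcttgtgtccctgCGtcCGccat
Tgm1: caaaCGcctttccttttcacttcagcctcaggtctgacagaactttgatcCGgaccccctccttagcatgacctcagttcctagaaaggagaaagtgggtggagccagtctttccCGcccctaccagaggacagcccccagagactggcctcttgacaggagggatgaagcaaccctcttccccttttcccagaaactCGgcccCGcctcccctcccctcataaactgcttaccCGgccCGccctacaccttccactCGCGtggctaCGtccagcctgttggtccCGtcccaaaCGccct
Tgm3: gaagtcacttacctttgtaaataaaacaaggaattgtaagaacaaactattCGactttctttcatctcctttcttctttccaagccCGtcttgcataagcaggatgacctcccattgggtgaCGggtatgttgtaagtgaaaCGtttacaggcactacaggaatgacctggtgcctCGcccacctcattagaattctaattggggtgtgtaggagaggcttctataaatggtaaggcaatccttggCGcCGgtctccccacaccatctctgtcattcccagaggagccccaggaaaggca

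The kallikrein promoters held few CG dinucleotides, 5 for Klk5 and 4 for Klk7. The promoters of Spint1 and Spint2 held 28 and 26, with GC contents of 69.7% and 69.3%. Tgm1 and Tgm3 lay between these with 12 and 7. Of these 6 promoters, MOF was called at Spint1, H3K4me3 at Spint1, Spint2 and Tgm1, H3K27Ac at these and at Klk5, and nothing at Klk7 and Tgm3.

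The count of promoters with each mark was set beside the share of all genes. A MOF peak was present at 1 promoter, that of Spint1, against 23.7% of all genes (95% exact interval 23.1 to 24.2). H3K4me3 was present at 6 promoters (St14, Prss8, Spint1, Spint2, Casp14 and Tgm1), beside 54.0% of all genes. H3K27Ac was present at the same 6 and at Klk5, giving 7 of 10 beside 44.1%. Where the centre of the peak had to lie in the window, these counts were 1 for H3K4me3 (25.5% of all genes), 3 for H3K27Ac (26.2%) and 0 for MOF (14.7%). Neither mark was called at the promoters of Klk7, Spink5 and Tgm3. No Rfx2 peak was found at any of the 10 promoters, where 1.21% of all genes had one. The interval about each all-gene share covers counting over genes only.

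Both marks together were present at 6 of 10 promoters beside 43.1% of all genes, so the share was not far from the background. Both marks without MOF were found at 5 promoters (St14, Prss8, Spint2, Casp14 and Tgm1), where 22.0% of all genes had this combination. At St14 a MOF peak overlapped both mark peaks but began 211 bp downstream of the TSS, past the edge of the window. Among the 6 genes with H3K4me3 the promoter of Spint1 alone had MOF, and among all genes with H3K4me3 the share with MOF was 42.0%. Klk5 was the 1 gene of the set with H3K27Ac and no H3K4me3 at the promoter, a state of 1.03% of all genes. Other genes of the same pathways were in this state too, Dsc1 among them. The H3K27Ac peak of Klk5 was low, at the 14.8 percentile of genes with such a peak. With the stronger 50% of peaks, H3K27Ac was at 5 promoters beside 36.7% of all genes, and Klk5 was not among them.

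**Figure D1:**
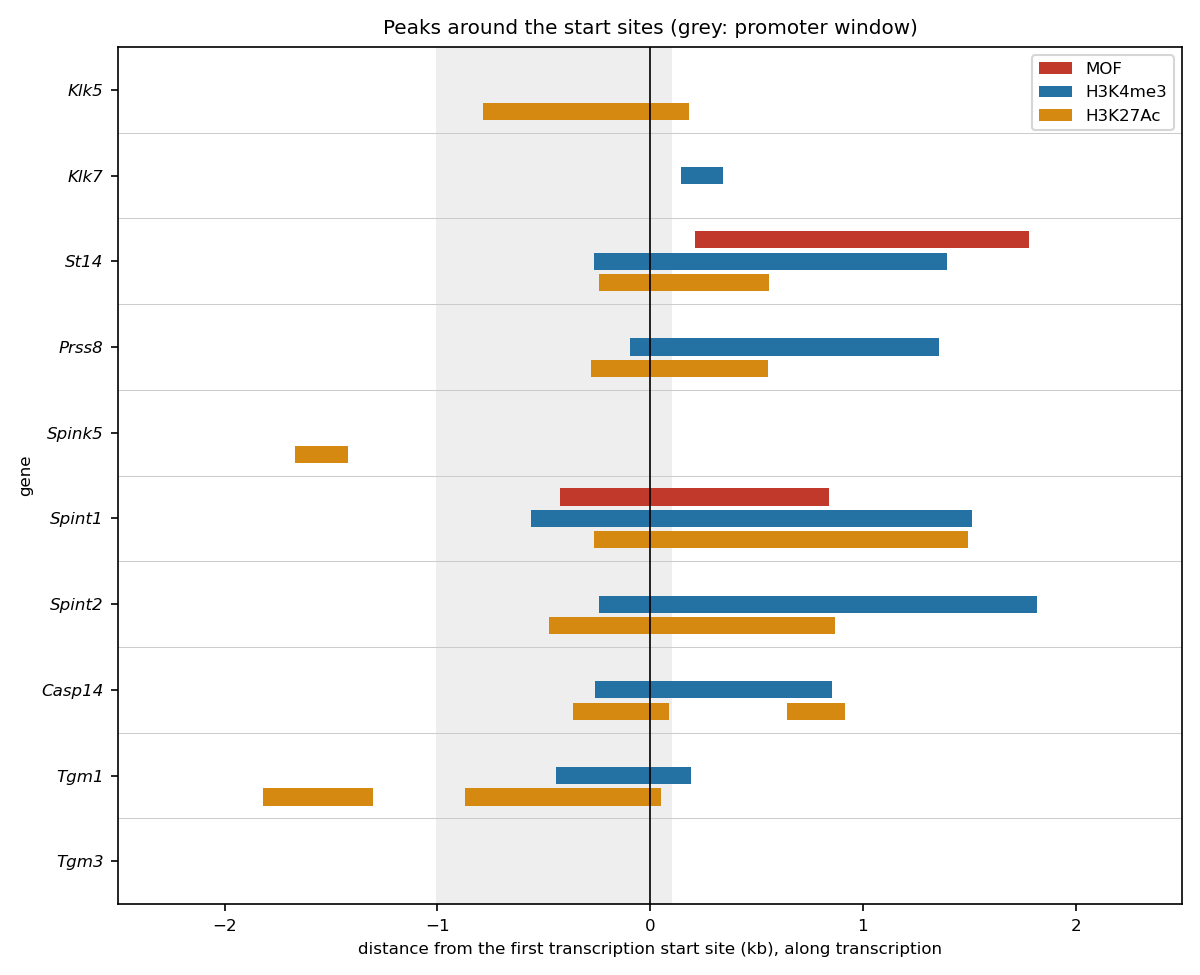
Peaks around the start sites of the 10 genes. The horizontal axis gives the distance from the transcription start site in kb along the direction of transcription, the bars are peaks drawn to scale, and the grey band is the promoter window. A MOF peak entered the window at Spint1 only, while the MOF peak of St14 and the H3K4me3 peak of Klk7 began 211 bp and 144 bp downstream of the start site.

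Values close to the edge of the window concerned Klk7 and St14. The H3K4me3 peak of Klk7 (chr7:43811438-43811639, 202 bp, fold enrichment 4.06) began 144 bp downstream of the TSS, in the annotated 5′ UTR, and was therefore counted in the gene body. A MOF peak of St14 (chr9:31130019-31131588, 1570 bp, score 576) began 211 bp downstream of the TSS, in an intron, and overlapped the H3K4me3 and H3K27Ac peaks of that promoter. With a window of 500 bp on either side of the TSS, MOF was counted at 2 promoters, St14 and Spint1, beside 24.3% of all genes, and H3K4me3 at 7 beside 54.9%. The only MOF promoter peak of the set under the main window was thus joined by that of St14 when the window was widened downstream.

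In gene bodies, outside the promoters, MOF was found in 1 of 10 genes (St14) beside 17.5% of all genes, and Rfx2 in 0 beside 0.183%. H3K4me3 was found in the bodies of 2 genes (Klk7 and Spint2) beside 20.3%, and H3K27Ac in those of 3 (Spint2, Casp14 and Tgm3) beside 20.5%. Counted by the peak centre, which moves some promoter peaks into the body, they were 2 for MOF (23.9% of all genes), 6 for H3K4me3 (43.5%) and 6 for H3K27Ac (33.5%), and with the stronger 50% of peaks H3K4me3 was in 0 (8.08%).

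Within 20 kb outside the genes, MOF was found near 4 of 10 (Klk7, Prss8, Spint1 and Tgm1) beside 38.3% of all genes. H3K4me3 was found near 6 (Klk5, Klk7, Prss8, Spint1, Spint2 and Tgm1) beside 49.7%, and Rfx2 near 0 beside 1.53%. H3K27Ac was found near 8, all but St14 and Casp14, beside 47.5% of all genes. Many of these flanking peaks lay at promoters of other genes, namely 5 of 7 MOF peaks, 9 of 15 H3K4me3 peaks and 9 of 18 H3K27Ac peaks. Counting only peaks outside such promoters, MOF was near 2 genes (Prss8 and Spint1) beside 24.8% of all genes, H3K4me3 near 4 beside 29.3%, H3K27Ac near 7 beside 30.4%, and Rfx2 near 0 beside 0.286%.

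**Figure D2:**
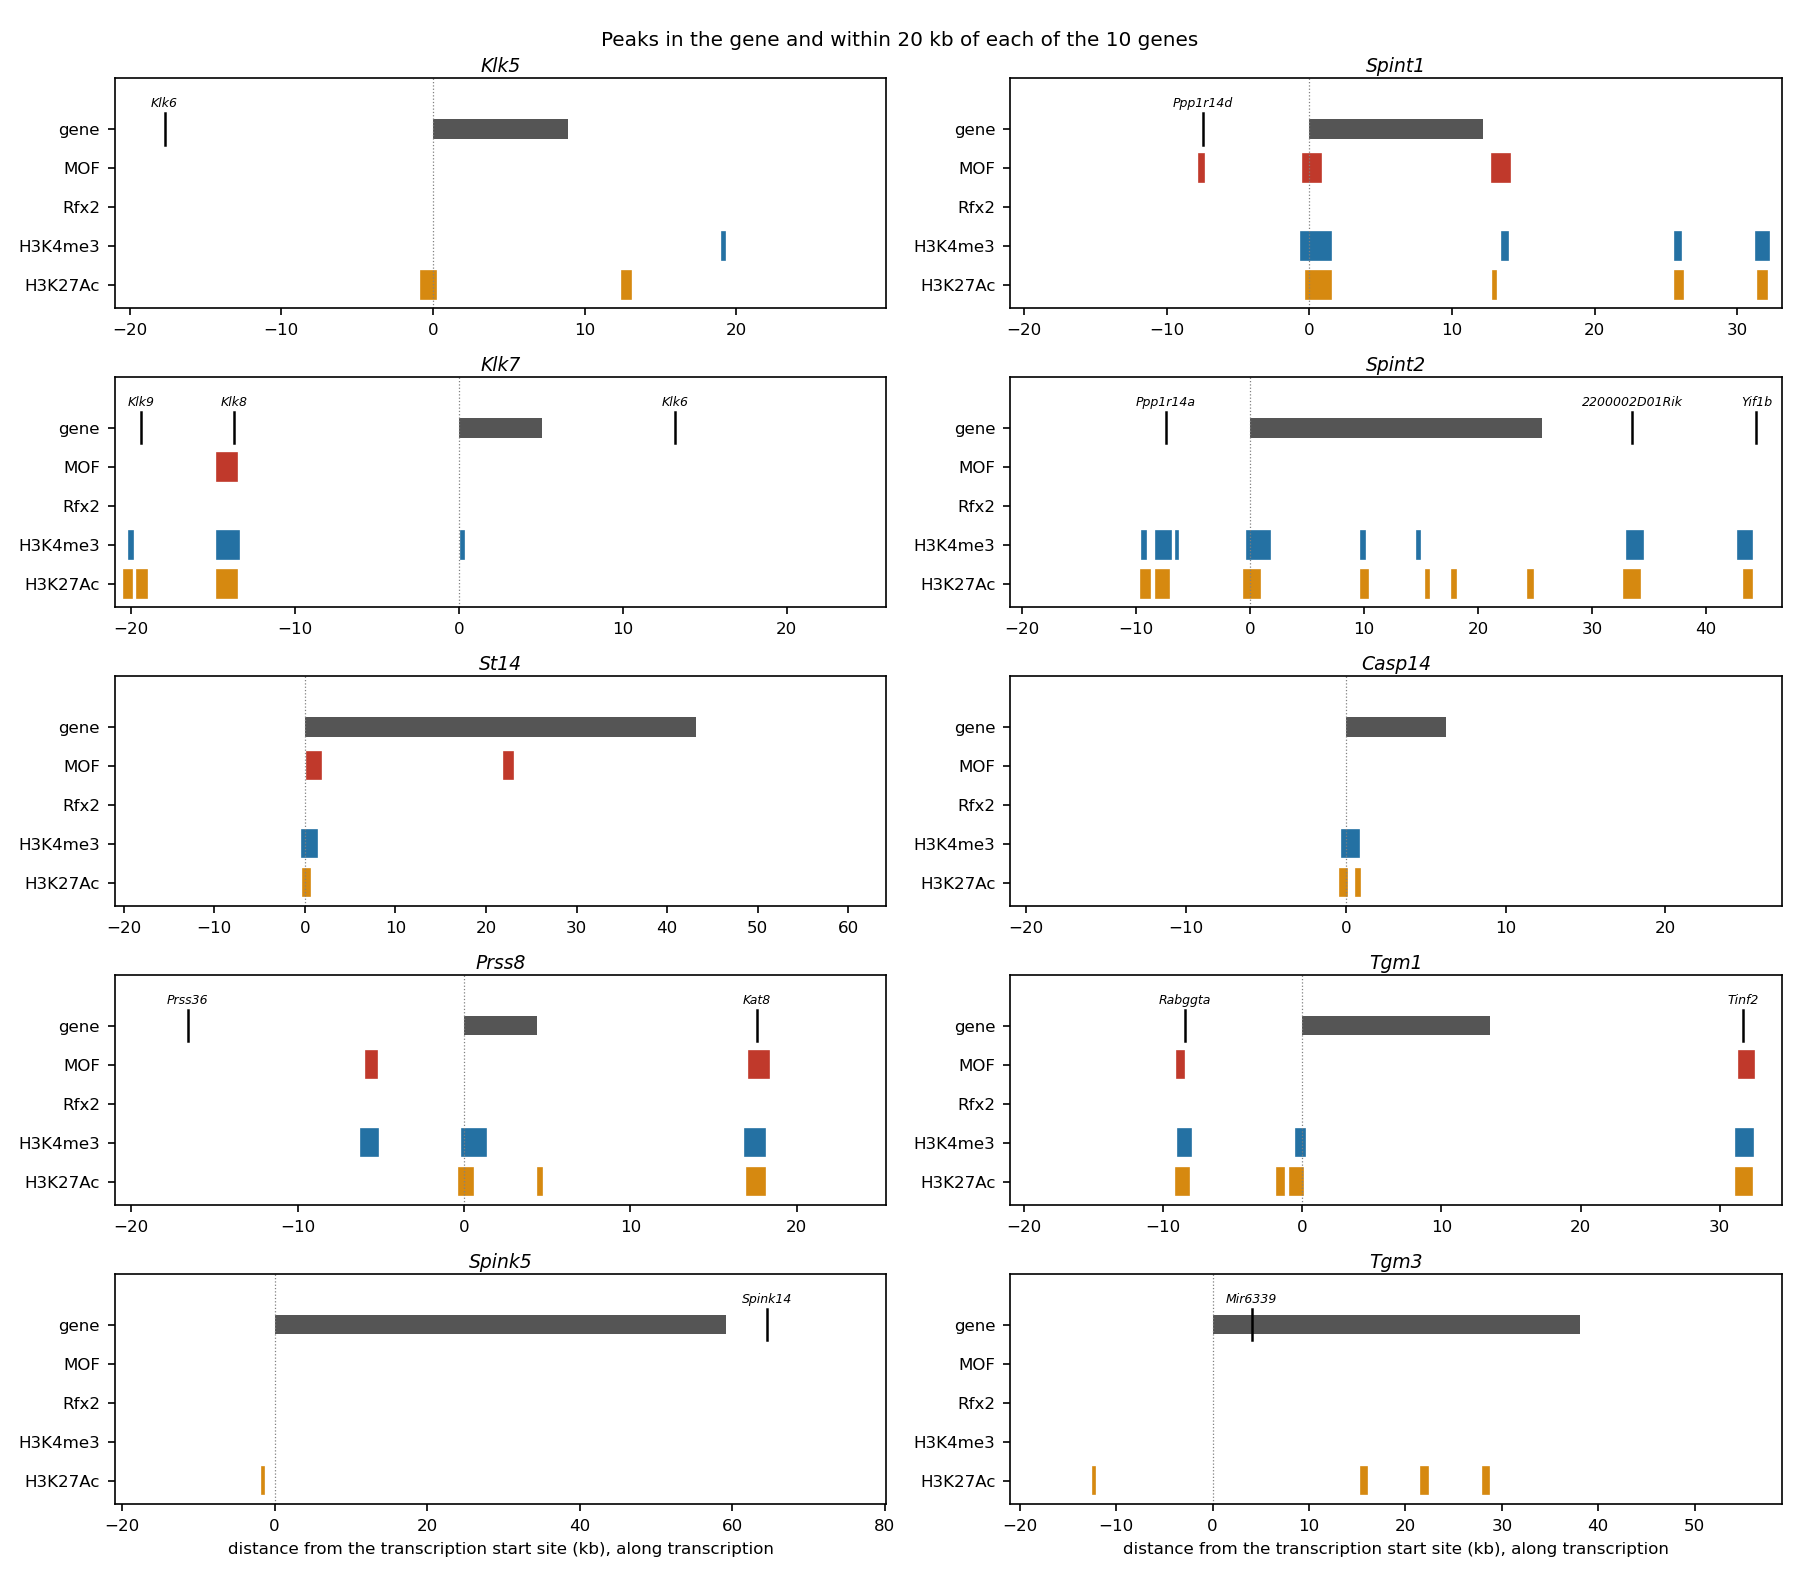
All peaks in and within 20 kb of each gene. Each panel is 1 gene, with distance from its transcription start site in kb along transcription, the gene as a dark bar, start sites of annotated neighbours as labelled ticks, and peaks of each list as coloured bars to scale. Spint2 had 17 peaks and Spink5 had 1, and the Rfx2 row is empty in every panel.

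Klk5 and Klk7 encode the kallikreins that cleave corneodesmosomal proteins. Klk5 (chr7:43842269-43851181, plus strand) had an H3K27Ac peak of 966 bp over its start site, with a fold enrichment of 4.62 and a summit at −212 bp from the TSS. A second H3K27Ac peak (549 bp, fold enrichment 4.41) lay 3591 bp beyond the end of the gene, and a short H3K4me3 peak (209 bp, fold enrichment 4.51) lay 10139 bp beyond it. Klk7 (chr7:43811294-43816387, plus strand) had the short H3K4me3 peak described above and no H3K27Ac in or at the gene. The remaining peaks near Klk7 lay upstream at the promoters of Klk8 and Klk9. The Klk8 promoter carried MOF (score 453), H3K4me3 (fold enrichment 7.89) and H3K27Ac (5.22), and the MOF peak there was 13.5 kb from the Klk7 start site.

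Both genes lie in a run of 12 kallikrein genes that spans 250 kb and is transcribed in 1 direction. In this span there were 2 MOF peaks, 0 Rfx2 peaks, 7 H3K4me3 peaks and 12 H3K27Ac peaks. Promoter peaks of H3K4me3 were found at Klk8, Klk9, Klk10 and Klk11, which are neighbours on the upstream side of Klk7. H3K27Ac was found at the same 4 promoters and at Klk5. The promoters of Klk4, Klk6, Klk12, Klk13, Klk14 and Klk15 had none of the 4.

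**Figure D3:**
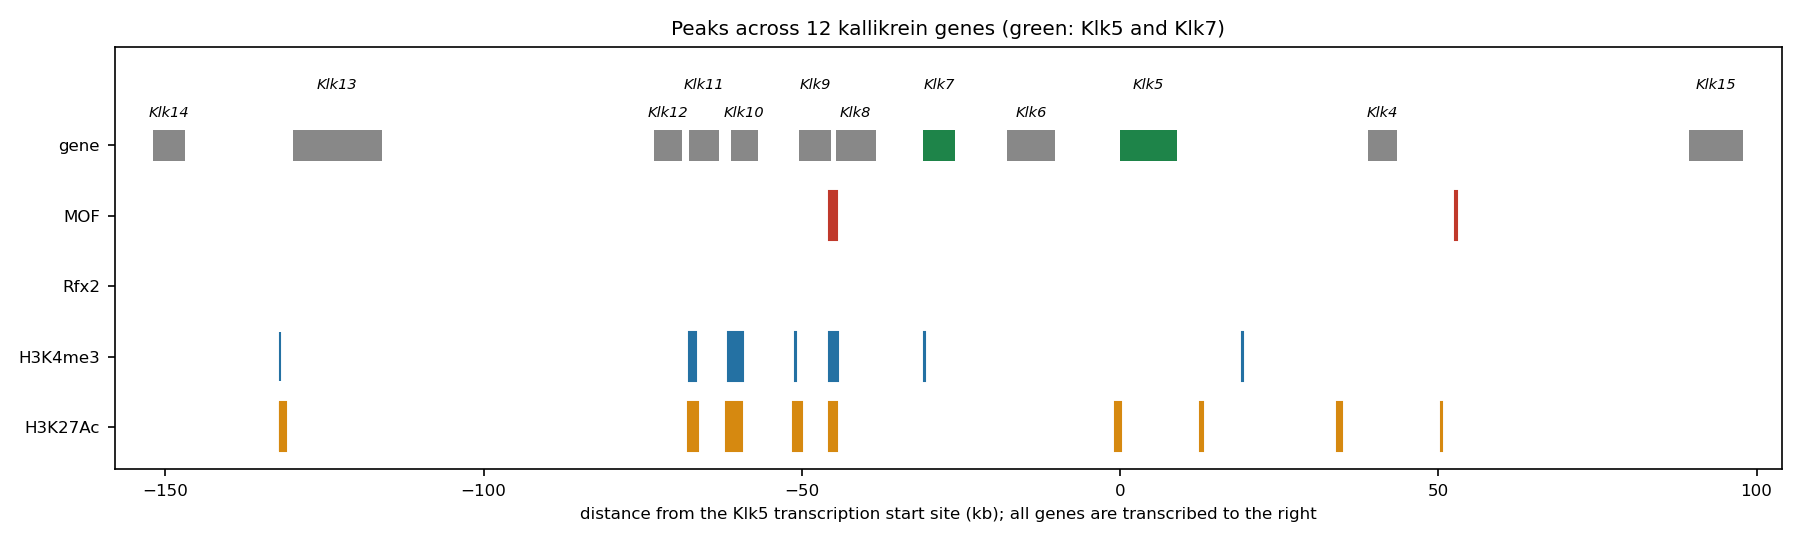
Peaks across the kallikrein genes. The horizontal axis is the distance from the Klk5 start site in kb, the bars of the upper row are genes (Klk5 and Klk7 in green), and the lower rows are peaks of the 4 lists. H3K4me3 promoter peaks fall at 4 neighbouring genes, Klk8 to Klk11, and the MOF promoter peak falls at Klk8.

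St14 encodes matriptase, a membrane-anchored protease that activates prostasin. At St14 (chr9:31088590-31131799, minus strand), H3K4me3 had a fold enrichment of 8.71 over 1661 bp, with its summit 747 bp downstream of the TSS, and H3K27Ac one of 5.73 over 799 bp. Apart from the MOF peak beside the promoter, the gene had a second MOF peak (chr9:31108806-31109801, score 833) in an intron, 21998 bp from the TSS, where neither mark was called. That score exceeded 80.2% of the MOF list, while the score of 576 beside the promoter stood at the 49.2 percentile. No peak of any list lay within 20 kb outside St14.

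Prss8 encodes prostasin, which acts with matriptase and on epithelial sodium channels. Its promoter (gene at chr7:127925717-127930113, minus strand) had H3K4me3 with a fold enrichment of 7.83 over 1453 bp and H3K27Ac with 3.62 over 832 bp, and no MOF. The gene lies tail to tail with Kat8, the gene of MOF itself. At the Kat8 promoter, 17.1 kb from the Prss8 TSS, a MOF peak (chr7:127911792-127912967) had a score of 987, above 87.0% of the MOF list, with H3K4me3 at 11.0 and H3K27Ac at 7.26. Upstream of Prss8, a MOF peak (chr7:127935313-127936024, score 484) overlapped an H3K4me3 peak (fold enrichment 8.31) inside Prss36, 5.20 kb from the Prss8 TSS and at no annotated promoter. A narrow H3K27Ac peak (236 bp, fold enrichment 5.31) lay 37 bp past the end of Prss8, within the span of Kat8.

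Spink5 encodes LEKTI, the multidomain Kazal inhibitor of kallikreins, and was the gene with the fewest peaks. Over its length of 59.2 kb and the flanks there was 1 peak, an H3K27Ac peak of 249 bp with a fold enrichment of 4.46 that lay 1422 bp upstream of the TSS. The nearest MOF peak was 417 kb from its TSS, farther than for 95.2% of all genes.

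Spint1 encodes HAI-1 and Spint2 encodes HAI-2, both Kunitz inhibitors of matriptase. At Spint1 (chr2:119237360-119249514, plus strand), MOF (chr2:119236938-119238203, 1266 bp), H3K4me3 (2074 bp, fold enrichment 5.29) and H3K27Ac (1760 bp, fold enrichment 5.33) overlapped one another across the TSS. The MOF score there was 491, and 21.4% of genes with MOF at the promoter had a lower one. At Spint2 (chr7:29256330-29281977, minus strand), H3K4me3 (2060 bp, fold enrichment 6.03) and H3K27Ac (1342 bp, 5.21) were of like width and height, but MOF was not called, and the nearest MOF peak was 59.0 kb away. The promoters of both inhibitors thus had broad marks, wider than those of 89.6% and 89.3% of genes with H3K4me3.

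A stronger MOF peak lay at the other end of Spint1. It began 672 bp beyond the annotated end of the gene (chr2:119250186-119251463), had a score of 1209, above 92.5% of the list, and overlapped an H3K4me3 peak of 435 bp with a fold enrichment of 11.7 and an H3K27Ac peak of 220 bp with 4.15. No promoter, predicted transcripts included, was annotated there. A further MOF peak near Spint1 (score 304) lay at the promoter of Ppp1r14d, without either mark. Around Spint2 the flanking marks lay at the promoters of Yif1b, 2200002D01Rik and Ppp1r14a, or close to the latter, and none of these promoters had MOF. Within Spint2, 4 H3K27Ac peaks with fold enrichments of 2.41 to 4.42 and 2 H3K4me3 peaks (4.05 and 4.47) lay in introns.

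Casp14 encodes caspase-14, a caspase of differentiated keratinocytes that does not serve apoptosis. Its promoter (gene at chr10:78711995-78718293, minus strand) had H3K4me3 with a fold enrichment of 5.08 over 1111 bp and H3K27Ac with 4.95 over 451 bp. A second H3K27Ac peak (270 bp, fold enrichment 3.67) lay 645 bp into the gene. No peak of any list was found within 20 kb outside Casp14, and the nearest MOF peak was 60.4 kb from the TSS.

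Tgm1 encodes the membrane-bound transglutaminase of the cornified envelope, and Tgm3 a soluble one of the upper epidermis and hair. The promoter of Tgm1 (chr14:55700009-55713492, minus strand) had the lowest folds of the set in both marks, 4.45 for H3K4me3 over 636 bp and 3.11 for H3K27Ac over 918 bp. An H3K27Ac peak of 516 bp lay 1302 bp upstream with a higher fold enrichment of 5.12. MOF near Tgm1 lay at the promoters of its neighbours Rabggta (score 550) and Tinf2 (score 571), both with H3K4me3 (11.5 and 11.9) and H3K27Ac (7.96 and 7.43). Tgm3 (chr2:130012340-130050399, plus strand) had H3K27Ac only. Its peaks were 3 in introns, with fold enrichments of 5.71, 4.25 and 5.29, and 1 located 12.1 kb upstream with 4.57.

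The marks at these promoters were mostly lower than at other promoters with a peak. Among genes with H3K4me3 at the promoter the median fold enrichment was 8.04 (quartiles 6.18 and 10), and 5 of the 6 genes of the set were below it, with a median of 5.66. St14 stood at the 59.7 percentile, Prss8 at 47.3, Spint2 at 23.1, Spint1 at 14.8, Casp14 at 13.2 and Tgm1 at 7.54. For H3K27Ac the median over all genes with a peak was 6.72 (quartiles 5.27 and 8.24), and all 7 genes of the set were below it, with a median of 4.95. The percentiles ran from 32.7 for St14 to 3.97 for Prss8 and 1.46 for Tgm1. By −log10 q-value instead of fold enrichment, the median percentile of H3K4me3 was 39.3 in place of 19.0, and that of H3K27Ac was 19.2 in place of 19.5. Among all peaks of the lists, which include those away from promoters, the H3K27Ac median of 4.95 lay beside a list median of 4.91, and the H3K4me3 median of 5.66 beside one of 6.63.

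**Figure D4:**
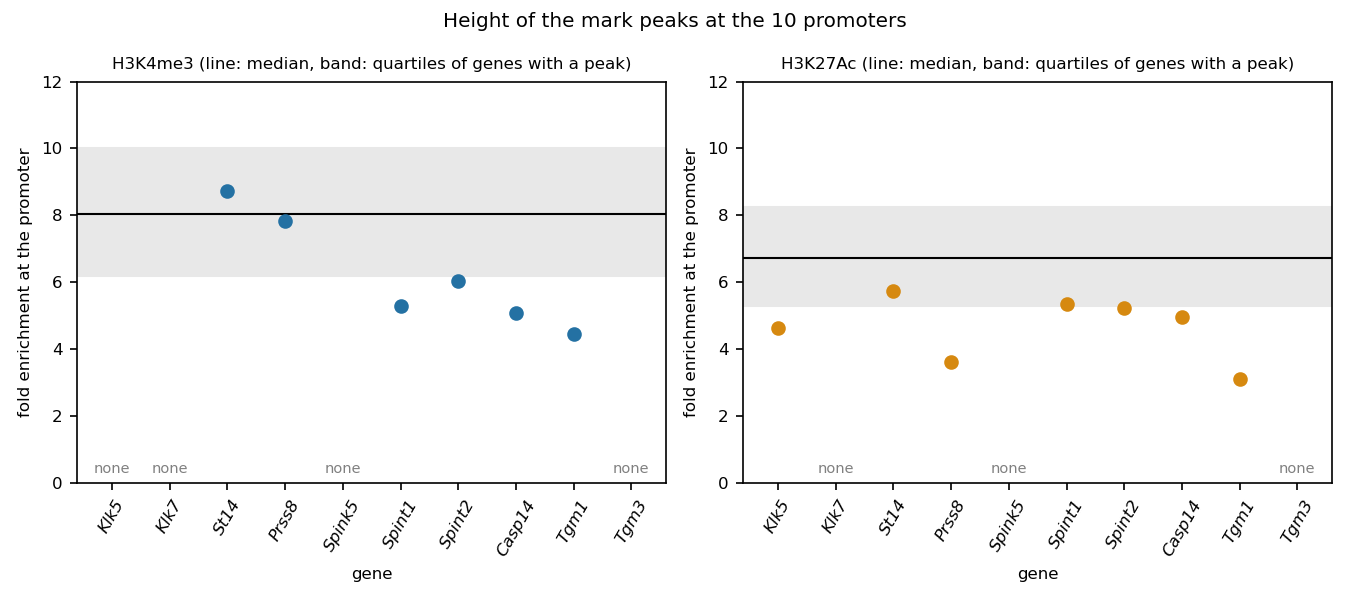
Fold enrichment of the highest H3K4me3 (left) and H3K27Ac (right) peak at each promoter, as given by the peak caller. Points are genes of 1 library each, the line is the median and the band the quartiles of all genes with a peak at the promoter, and genes with no peak are marked none. Only St14 lies above the H3K4me3 median of 8.04, and no gene reaches the H3K27Ac median of 6.72.

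Summits of H3K4me3 lay downstream of the TSS at 5 of 6 promoters, by 155 bp at Spint1 to 804 bp at Spint2, and upstream, at −268 bp, for Tgm1. Of all genes with H3K4me3 at the promoter, 62.4% had the summit downstream. For H3K27Ac the summit was downstream at 3 of 7 promoters (St14, Prss8 and Spint1), where the share over all genes was 57.9%.

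H3K27Ac peaks that overlapped no H3K4me3 peak, in the gene body or within 20 kb, were found at 8 of 10 genes, beside 28.9% of all genes. The genes without such a peak were St14 and Casp14. Tgm3 had 4 (the 97.0 percentile of all genes), Spint2 had 3 (94.1), and the other 6 genes had 1 each. The mean was 1.30 peaks per gene in the set and 0.555 over all genes. Longer genes offer more room for such peaks, and per 10 kb of the searched span the means were 0.210 and 0.0738. The rule asked only for no overlap, and some of these peaks lay close to H3K4me3. At Klk7 the peak lay at the promoter of Klk9, 19038 bp upstream, next to an H3K4me3 peak, and at Spint1 under the same MOF peak as one, whereas at Spink5 it was the only peak of the locus.

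The distance from the TSS to the nearest MOF peak was 0 for Spint1, 0.211 kb for St14, 5.20 kb for Prss8, 8.52 kb for Tgm1 and 13.5 kb for Klk7. It was 44.5 kb for Klk5, 46.3 kb for Tgm3, 59.0 kb for Spint2, 60.4 kb for Casp14 and 417 kb for Spink5. The median of 29.0 kb compared with 20.8 kb over all genes and 5.44 kb over genes with H3K4me3 at the promoter. With the stronger 50% of MOF peaks these medians were 147 kb, 53.9 kb and 29.6 kb. The medians of the set include Klk5, Klk7, Spink5 and Tgm3, which had no H3K4me3 at the promoter, so the last reference covers an unlike set. By all MOF peaks, distance percentiles among genes with H3K4me3 were 0 (Spint1), 40.7 (St14), 49.6 (Prss8), 54.3 (Tgm1), 85.3 (Spint2) and 85.7 (Casp14). Rfx2 peaks were rare in the genome, and the nearest were 152 kb from Tgm1 and 161 kb from Prss8, with a median of 898 kb in the set and 2209 kb over all genes.

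The CpG content of the promoters was mostly low. The ratio of observed CG dinucleotides to the number expected from the C and G content was taken over the whole promoter window, and it was 0.175 for Klk7, 0.192 for Klk5, 0.202 for Spink5, 0.226 for Tgm3, 0.258 for Prss8, 0.288 for Tgm1 and 0.301 for Casp14. It was higher for St14 (0.493), Spint2 (0.562) and Spint1 (0.619). In this window the 4 lowest were the 4 without H3K4me3 at the promoter, and the highest was the 1 with MOF. From 250 bp before to 50 bp after the TSS the former order was lost, since Prss8, with H3K4me3, had 0.179, below Klk7 (0.20), Klk5 (0.213) and Tgm3 (0.425), while Spint1 was again the highest (0.775). Over the whole window the median was 0.273 in the set, 0.397 over all genes and 0.595 over genes with H3K4me3. The set median includes the 4 genes without H3K4me3, so the last reference covers an unlike set. Among genes with H3K4me3, the genes of the set that had it ranged from the 5.11 percentile (Prss8) to the 54.8 percentile (Spint1).

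The share of genes with MOF varied with this ratio across the genome. Among genes with H3K4me3 and a ratio below 0.6, MOF was present at 34.0%, and 0 of 5 genes of the set in that range (St14, Prss8, Spint2, Casp14 and Tgm1) had it. That count depends on the downstream edge of the window, since a MOF peak of St14 lay just past it. At a ratio of 0.6 or above the share was 50.3%, and Spint1 was the 1 gene of the set in that range. In bins of the ratio, the share ran from 16.7% of 42 genes in the lowest bin to 55.6% of 1361 genes between 0.8 and 0.9.

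**Figure D5:**
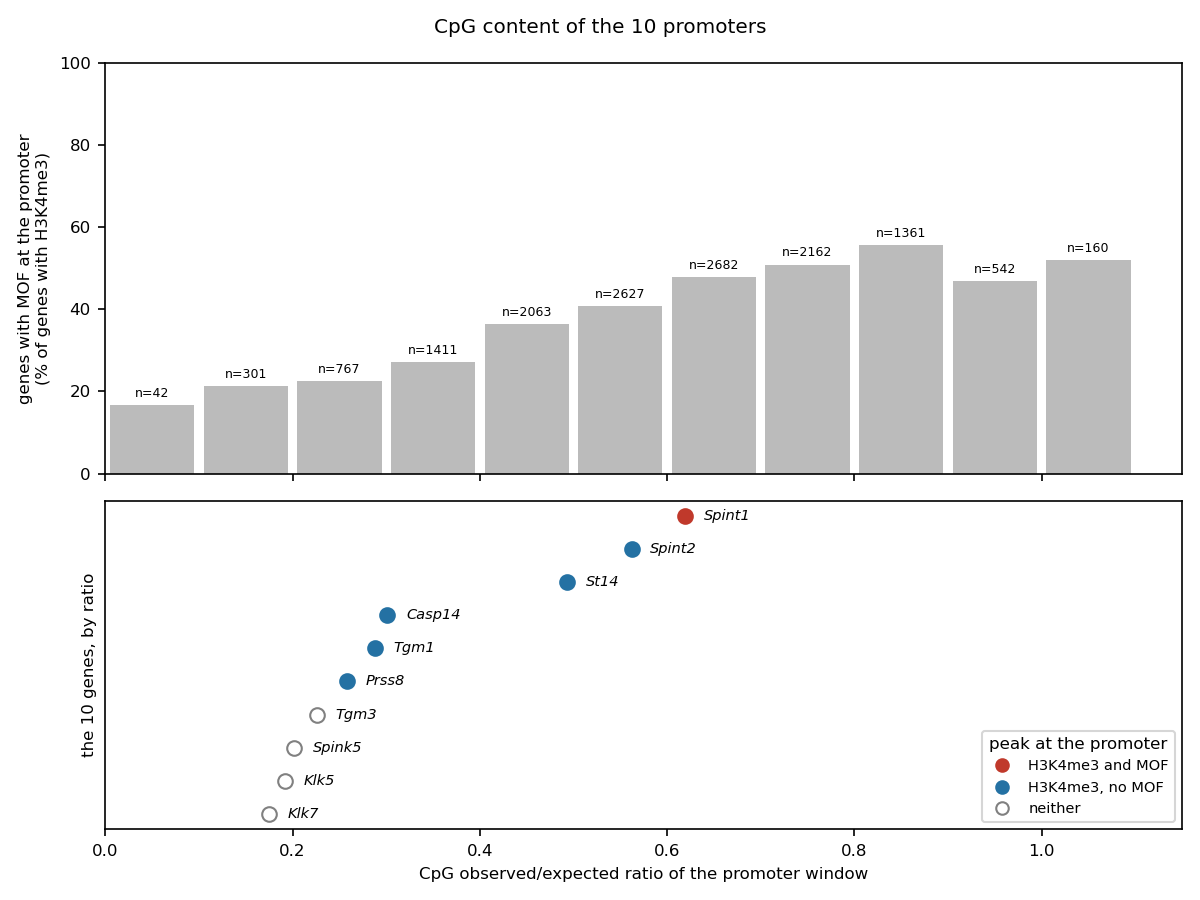
CpG content and MOF. The upper panel gives the percentage of genes with H3K4me3 that had MOF at the promoter in bins of the observed to expected CpG ratio, with the number of genes above each bar, and the lower panel places the 10 genes on the same axis. Spint1, the gene with MOF, has the highest ratio (0.619), and the 4 genes without H3K4me3 have the lowest (0.175 to 0.226) in this window, but not in the shorter one around the TSS.

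Motifs were looked for on both strands of the promoter sequences of 7 of the genes (St14, Prss8 and Spink5 were not searched), from 250 bp before to 50 bp after the TSS, beside 32851 promoters of that length. The TATA motif TATAAA was found at Tgm3 and none of the other 6, 28 to 23 bp upstream of the TSS (13.6% of all promoters). TGANTCA, the AP-1 motif, was found at Spint1 as TGACTCA ending at the TSS (7.81% of all). CCAAT, or its reverse complement ATTGG, was found at Spint1, Tgm3 and the downstream start site of Tgm1 (37.4% of all). The X-box was found at 0 of 7, and at 1.53% of all promoters. These are matches of letters and not measured sites.

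Other genes of the same pathways were counted from a list of 91 genes, the 10 included, of which 90 were found in the annotation. Of the other 80, 10 had MOF at the promoter (12.5%, exact interval 6.16 to 21.8), beside 23.7% of all genes. Rfx2 was at 0 beside 1.21%, and H3K4me3 and H3K27Ac were each at 37 (46.2%) beside 54.0% and 44.1%. Among the 37 with H3K4me3, 9 had MOF (24.3%, interval 11.8 to 41.2), beside 42.0% of all genes with H3K4me3. The MOF-positive genes were the protease genes Klk8 (score 453), Prss22 (541), Blmh (806), Ctsd (455) and Ctsl (478), the serpin genes Serpinb5 (444) and Serpinb6a (1110), the transglutaminase gene Tgm5 (505), the desmosomal cadherin gene Dsc1 (736) and the envelope gene Evpl (367).

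By role, H3K4me3 was present at 4 of 10 other kallikreins, 5 of 11 other trypsin-like serine proteases of epithelia, 7 of 18 other inhibitors, 1 of 7 other transglutaminases, 6 of 9 other caspases, 8 of 11 other proteases of cornification and 6 of 14 substrates and envelope genes, beside 54.0% of all genes. MOF was present at 1, 1, 2, 1, 0, 3 and 2 genes of these groups in the same order, beside 23.7% of all genes. The caspases thus had H3K4me3 and H3K27Ac at 6 promoters and MOF at 0, as did Casp14, which had both marks and no MOF. The proteases of cornification, which include the cathepsins and bleomycin hydrolase (Blmh), had MOF at 3 of 11, or 27.3%.

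Presence or absence of peaks from the 4 lists at promoter, body and flank gave 12 calls for each gene. Prss8 and Tgm1 were alike in all 12, and Spint1 differed from both by its MOF promoter peak alone, with 11 of 12. Klk7 was least like St14 and Casp14, with 5 of 12 in each case. Among the other pathway genes, Klk11 and F2rl1 (the receptor PAR2, a target of these proteases) matched Prss8 and Tgm1 in 12 calls. Ctsd matched Spint1, Ivl and Rptn matched Spink5, and Serpinb12 matched Tgm3, each in 12. For the others the best match was 11 of 12, shared by 8 genes for Klk5, 6 for Casp14, and 4 each for Klk7, St14 and Spint2. Those named are Klk12 and Klk13 for Klk5, and Capn12 and Klk14 for Klk7. Klk5 and Klk7 had no H3K4me3 peak at the promoter, so its height could not break their ties. Named for the rest are Serpinb8 and Casp6 for St14, Klk9 and Scnn1a for Spint2, and Serpinb5 for Casp14. Shared absences count here as well as shared peaks, and the 3 Rfx2 calls were absences for all 10 genes.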

How the data were processed

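Peak lists of total epidermis from wild-type newborn mice were used for MOF (ChIPseq, single-end reads) and for Rfx2, H3K4me3 and H3K27Ac (Cut&Run, paired-end reads), 1 library for each antibody. Per the study's methods, the authors aligned reads to mm10 with Bowtie2 in its very sensitive local setting and called peaks with MACS2 library by library. For MOF the caller fitted no fragment model and limited duplicates automatically, and for the others it used whole fragments. A control library and excluded regions are not given in the sources used here. The deposited Rfx2, H3K4me3 and H3K27Ac lists gave a score, a fold enrichment over the local background, a −log10 p-value and a −log10 q-value for each peak, with every q-value below 0.05. The deposited MOF list was in a gapped-peak layout, in which each region is an outer span that holds inner blocks, with a score and no fold enrichment, p-value or q-value. The outer span was used. The scale of that score is not stated and the list may be an unfiltered call, so scores were used only to rank MOF peaks. Heights were not compared between lists. The lists hold no read counts, so depth was not used, although the study gives mapped reads per library.

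Peaks were placed on curated RefSeq transcripts of GRCm38.p6 (mm10), and 0 peaks ended beyond a chromosome. A peak that overlapped a promoter window was counted there, otherwise in the body, otherwise within 20 kb. Where several peaks overlapped a promoter, the highest was taken. The CpG ratio is the observed number of CG over that expected from the C and G content, in the same window. Percentiles are among genes with a peak of that list at the promoter, or among all peaks of a list for other peaks. Intervals are exact (Clopper-Pearson, 95%) and cover counting over genes only. No test was made, since groups and replicates were lacking. The remaining samples were not used here.

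Named are the 10 genes, the genes whose promoters hold a peak within 20 kb of them, the pathway genes with MOF or Rfx2 at the promoter, and up to 2 pathway genes most like each of the 10, where ties went to the nearest H3K4me3 height. A gene among the latter is counted but not reported here by name. Kallikreins between and beside Klk5 and Klk7, groups of the pathway list and the gene around the peak upstream of Prss8 were named after their values were seen. The 10 genes and the lists were chosen with earlier results of these data known. Overlaps were computed in Python (3.11.15) with numpy (2.4.6), pandas (2.3.3), scipy (1.17.1) and pysam (0.24.0). On simulated data 200 of 200 planted promoter peaks were recovered, and 0 of 24963 windows differed from bedtools (2.31.1). All planted peaks lay inside the window, so their recovery checked the overlap code and not calls near its edges. Alternatives varied the window, the overlap, the flank, the transcripts and the strength of peaks.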

Additional observations from a re-analysis of the deposited data

How the results depend on the processing

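Of the recomputed values, 46 stayed within the limits set for a change, 22 moved beyond them, and 0 were labelled reversed. These labels rate the size of a value and not its side of the all-gene share, which did change in places. H3K4me3 was at 6 of 10 promoters beside 54.0% of all genes, but at 4 beside 45.3% with the stronger 50% of peaks. MOF was within 20 kb of 4 genes beside 38.3%, but of 2 beside 24.8% outside promoters of other genes. No paired analysis was possible because only 1 library per antibody was analysed, and for the same reason no replicate could be left out. Shares of all genes under the same setting stand in brackets. MOF at the promoter was counted at 2 genes (St14 joined Spint1) with 500 bp (24.3%), 1 kb (25.6%) or 2.5 kb (27.8%) on either side of the TSS and with 1 kb upstream to 500 bp downstream (24.8%), and at 0 genes when the peak centre had to lie in the window (14.7%) or when only the stronger 50% of peaks was used (14.6%). Requiring the centre left 1 promoter with H3K4me3 (25.5%) and 3 with H3K27Ac (26.2%), and put MOF in 2 gene bodies (23.9%), H3K4me3 in 6 (43.5%) and H3K27Ac in 6 (33.5%). With the stronger 50% of peaks, H3K4me3 was in 0 bodies (8.08%), and MOF and H3K27Ac were within 20 kb of 2 (21.9%) and 5 genes (36.2%). A flank of 5 kb gave 1 gene for MOF (10.9%), 1 for H3K4me3 (18.9%) and 5 for H3K27Ac (18.6%), a flank of 50 kb gave 8 for MOF (63.1%), and leaving out promoters of other genes gave 2 for MOF (24.8%). The median H3K4me3 percentile was 39.3 by −log10 q-value, the median distance to MOF was 147 kb with the stronger 50% of peaks, and the median CpG ratio was 0.426 from 250 bp upstream to 50 bp downstream, where the median of all genes was 0.524. Rfx2 stayed at 0 genes in every setting run. The cause of these shifts was not tested. The window of 1 kb upstream to 500 bp downstream and the inner part of MOF regions (MOF at 1 promoter, 20.6%) were added after seeing the data.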
